A study of Mus musculus with 10 samples.

Results

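Batch 2 and batch 1 of mouse bone marrow cells with an ASXL2 construct or empty vector were compared across all genes. Batch 2 held 5 RNA-seq libraries and batch 1 held 5, which together are all 10 libraries of the study. Each batch had 1 library of each construct, namely empty vector (EV), full-length ASXL2 (WT) and the mutants Mut1, Mut2 and Mut3. Batch and construct were read from the deposited names of the tables, and the construct was kept as a block, so that each batch 2 library was set against the batch 1 library of the same construct. All libraries came from Lin-Kit+ marrow cells whose GFP+ fraction was sorted and expanded with recombinant mouse IL3, IL6 and SCF in IMDM with 15% FBS, and polyA RNA was sequenced. The labels give batch as a tag and do not say what a batch shares, nor the strain, sex or number of the animals. They do not say whether the libraries of a batch came from separate cultures, so p-values measure only the spread between these libraries. Within each batch, values are given below in the order EV, WT, Mut1, Mut2 and Mut3.

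The labels and the deposited names did not give the same batch for 2 libraries. These were the 2 libraries named Mut2: the one named batch 2 is labelled batch 1, and the one named batch 1 is labelled batch 2. In 4 libraries, these 2 included, label and name also differed in the construct. Results are therefore given for all 10 libraries by name and again for the 8 libraries (4 of each batch) whose label and name give the same batch. With batch and construct taken from the labels instead, 0 genes passed edgeR's quasi-likelihood test at an adjusted p of 0.05, and 2722 had an unadjusted p under 0.05; DESeq2 was not run with the labels.

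IL3 and SCF are the cytokines that drive mast cells out of marrow progenitors in culture. Mast cells store serine proteases and carboxypeptidase A3 on the proteoglycan serglycin in their granules and load them with histamine and serotonin. Gene programmes that answer to cytokine supply, oxygen, redox state and amino acid supply are known to be active in such cultures.

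The libraries carried the mast cell markers, and for several other lineages most listed genes were under 1 TPM. Of 12 granule proteases, 10 had a mean of at least 1 TPM (transcript abundance scaled for transcript length and library size), and of 21 genes of mast cell identity, 20 did. Cpa3, carboxypeptidase A3, averaged 23307 TPM in batch 2 and 24874 TPM in batch 1. Under 1 TPM in every library were 16 of 20 neutrophil genes (Mpo and Elane among them), 20 of 23 lymphoid genes, 13 of 17 stromal and endothelial genes, 11 of 21 monocyte and macrophage genes (Csf1r among them) and 11 of 15 dendritic cell and class II genes. Other lists were expressed more widely. A mean of at least 1 TPM was reached by 20 of 28 stem and progenitor genes and 9 of 15 megakaryocyte and platelet genes. The same held for 5 of 7 basophil markers and 9 of 18 erythroid genes. Totals ran between 52422686 and 79320702 estimated counts a library. In bulk RNA, fewer cells of a type and less RNA per cell cannot be told apart.

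The main axis of these data separated the batches. The first principal component held 45.3% of the variance and put all 5 batch 2 libraries at scores of -44.8 to -24.2 and all 5 batch 1 libraries at 20.5 to 46.9. The 2 libraries named Mut2 fell among the other libraries of the batch in their names. The second component held 16.8% and set the EV library of each batch apart from the ASXL2 libraries.

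**Figure D1:**
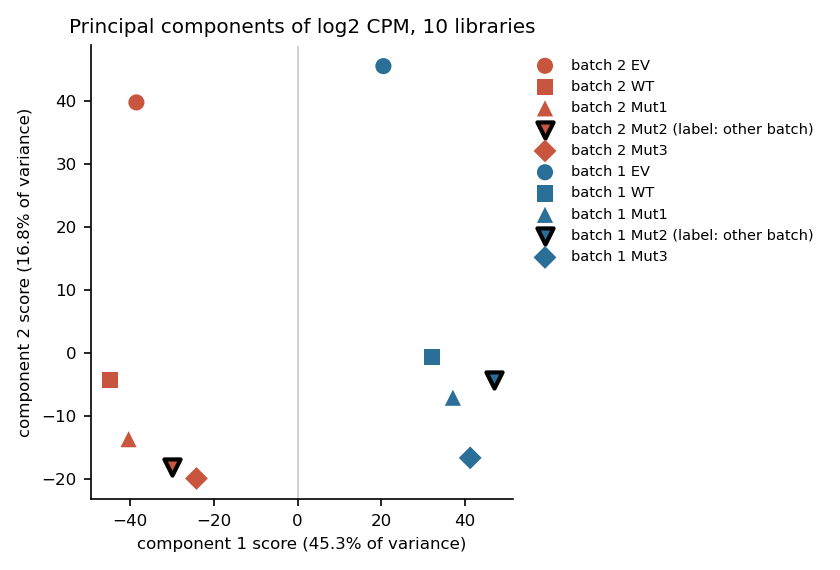
Scores of the 10 libraries on the first (x axis) and second (y axis) principal components of log2 CPM, with batch 2 in red and batch 1 in blue, a symbol for each construct, and a black outline where the label gives the other batch. The batch 2 libraries lie at -44.8 to -24.2 and the batch 1 libraries at 20.5 to 46.9 on the first component.

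Of 16443 genes tested with edgeR's quasi-likelihood test, 4741 (28.8%) were higher and 4289 (26.1%) lower in batch 2 at an adjusted p under 0.05 (Benjamini-Hochberg), in all 54.9%. Most of these differences were small: 195 genes (1.19%) were higher and 928 (5.64%) lower by at least 2-fold. The median log2 fold change of all genes tested was -0.015. In the 8 libraries whose label and name give the same batch, 4318 of 16482 genes were higher (26.2%) and 3592 lower (21.8%), in all 48.0%, with 1.12% higher and 5.08% lower by at least 2-fold, and 7663 of these 7910 genes were called in the 10 libraries too. Levels in CPM (counts scaled to the library total and by TMM) did not overlap between the batches for 2852 genes that lay above in batch 2 (17.3%) and 2396 that lay below (14.6%). The direction split depends on the scaling: 52.5% of called genes were higher with TMM, 37.28% with upper-quartile scaling, and 15.91% on the log2(TPM + 1) scale, which moved the median gene by -0.158 on the log2 scale against TMM. Beside the counts of gene lists, those on the TPM scale are therefore given too. On that scale 1031 of all 16443 genes were higher and 5449 lower, so its counts have another background than 28.8% and 26.1%.

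Among genes with a mean of at least 5 CPM in the higher batch, the largest differences were in sex-linked genes. Xist, the noncoding RNA that silences an X chromosome in female cells, had 0.162, 0.0746, 0.0836, 0.104 and 0.193 CPM in batch 2, against 1186, 1049, 1035, 1208 and 952 CPM in batch 1. Eif2s3y, a Y-linked translation factor subunit, had 52.0, 55.9, 50.1, 45.1 and 57.7 CPM in batch 2, against 0.0559, 0.139, 0.074, 0.112 and 0.0716 CPM in batch 1. In all 10 libraries, those named Mut2 included, these 2 genes followed the batch of the deposited name with no overlap. The log2 fold changes were -13.05 ± 0.13 (SE) for Xist and 9.09 ± 0.11 for Eif2s3y (edgeR adjusted p = 3.89e-10 for each). The Y-linked genes Ddx3y (8.57), Uty (7.47) and Kdm5d (5.12) rose as well, on the same log2 scale. Batch and the sex of the cells thus cannot be told apart in any comparison below.

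X-linked genes that are known to escape silencing were looked at after their values were seen. Kdm6a, a histone demethylase, had 83.1 to 95.0 CPM in batch 2 and 157 to 177 CPM in batch 1 and fell by 0.84 on the log2 scale. Kdm5c, another histone demethylase, fell by 0.50 and Eif2s3x, the X-linked partner of Eif2s3y, by 0.25. Ddx3x, the X-linked partner of Ddx3y, had 458 to 528 CPM in batch 2 and 479 to 503 CPM in batch 1 and did not pass edgeR's test (log2 fold change 0.03, adjusted p = 0.526). Of 412 protein-coding genes tested on the X chromosome, 139 were higher and 91 lower, with a median log2 fold change of 0.03. Over all protein-coding genes tested, 35.2% were higher and 21.6% lower, with a median of 0.05.

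Among autosomal genes, proteases and immediate early genes led the rises. The rule for large changes named, beside the Y-linked genes, Ctsg, Egr1, Hbb-y, Fos, Zfp503, Lypd6, Mcpt4, Mcpt2, Tgfa, Ccl6 and Mcpt8, with log2 fold changes of 4.14 (Ctsg) down to 1.80 (Mcpt8). Zfp503, a zinc finger repressor, had 13.5 to 41.4 CPM in batch 2 and 2.67 to 3.13 CPM in batch 1. Hbb-y, an embryonic beta-like globin, had 1.83 to 43.1 CPM in batch 2 and 0.466 to 2.27 CPM in batch 1, so that the batches overlapped although each construct pair was higher in batch 2. Cd163, the haemoglobin scavenger receptor, had 9.16 to 10.5 CPM in batch 2 and 2.81 to 3.54 CPM in batch 1 and rose by 1.62 ± 0.08 on the log2 scale.

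Among genes with a mean of at least 5 CPM in batch 1, the largest falls by the naming rule, beside Xist, were those of Slc15a2 (log2 fold change -2.95), Cadm1 (-2.89), Rgs11 (-2.86), Cadps2 (-2.23), Fn3k (-2.21), Hpn (-2.08), Maf (-1.89), Far2 (-1.85), Afap1l1 (-1.85), Btg2 (-1.75), Neat1 (-1.74), Arhgef28 (-1.73), Lrmda (-1.69) and S100a4 (-1.67). Cadm1, a cell adhesion molecule of mast cells, had 12.9, 0.836, 3.44, 8.08 and 3.92 CPM in batch 2, against 58.4, 22.4, 31.9, 44.0 and 25.4 CPM in batch 1. S100a4, a calcium-binding protein, had 4.41 to 10.1 CPM in batch 2 and 13.3 to 28.6 CPM in batch 1. Each batch 2 library lay below each batch 1 library for both genes, while Rgs11, Cadps2 and Afap1l1 overlapped. Leaving out single libraries ended the call of Rgs11 (without EV or Mut1 of either batch, adjusted p at most 0.0617) and of Cadps2 (without EV of either batch, at most 0.0605) in edgeR.

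Most granule proteases of mast cells were higher in batch 2. Of 12 listed and tested, 9 were higher, 0 lower and 3 did not pass, with a median log2 fold change of 0.71 beside -0.015 for all genes tested. The 8 libraries gave 9 higher and 0 lower, and the TPM scale 6 and 0. Over all genes tested, 28.8% were higher and 26.1% lower. The called genes Cma1, Cma2, Mcpt1, Mcpt2, Mcpt4 and Ctsg lie close together on chromosome 14, between 55941451 (Cma1) and 56102574 (Ctsg). Mcpt8, listed below as a basophil marker, lies in the same stretch, so these calls are not spread over the genome. The part of this shared position in their rises was not tested. Ctsg, cathepsin G, had 264, 189, 172, 304 and 191 CPM in batch 2, against 39.4, 18.0, 6.57, 13.6 and 3.19 CPM in batch 1. Mcpt4, the connective tissue chymase, had 51.1, 33.3, 19.9, 50.8 and 19.8 CPM in batch 2, against 13.4, 10.1, 6.75, 9.15 and 5.05 CPM in batch 1. Neither gene overlapped between the batches, and each of the 5 constructs was higher in batch 2. The log2 fold changes were 4.14 ± 0.55 for Ctsg (adjusted p = 0.00381) and 1.93 ± 0.13 for Mcpt4 (adjusted p = 6.36e-05, edgeR).

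Cma1, a chymase and the second most abundant listed protease, averaged 11212 ± 655 CPM in batch 2 and 7475 ± 611 CPM in batch 1 (SD, n = 5 each; log2 fold change 0.59 ± 0.05, edgeR adjusted p = 8.17e-05). The tryptase Tpsb2 rose by 0.33 on the log2 scale and Tpsg1 by 0.36, with both calls lost on the TPM scale. Cpa3 (0.07), the granzyme Gzmb (0.14) and Mcpt9 (-0.05) did not pass, and each of these 3 changed sign under another scaling or set of libraries. Mcpt2 rose by 1.93 on the log2 scale. Without EV of batch 2 or of batch 1 its fold change was 1.87 or 1.88 and its edgeR call was lost (adjusted p at most 0.0727). Mcpt1, Mcpt2, Mcpt4 and Mcpt9 are related genes, as are Tpsb2 and Tpsab1. Whether the authors' quantification split reads between them was not tested, so values of single genes are uncertain.

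Genes of mast cell identity did not share a direction. Of 20 tested, 6 were higher (28.8% of all genes were) and 4 lower (26.1%), with a median of 0.05, and the 8 libraries gave 5 and 4 and the TPM scale 1 and 6. Slc18a2, the transporter that loads histamine and serotonin into granules, had 1352, 1373, 1307, 1208 and 1299.5 CPM in batch 2, against 1749.6, 1829, 2053, 2082 and 2039 CPM in batch 1, and fell by 0.57 on the log2 scale. The granule tetraspanin Cd63 (log2 fold change 0.36), the Fc receptor gamma chain Fcer1g (0.25) and the serglycin core protein Srgn (0.23) rose, but not on the TPM scale. Of 7 basophil markers 4 were higher and 0 lower (median 0.41), with 4 and 1 in the 8 libraries and 2 and 1 on the TPM scale. The median was 0.23 without Mut2 of either batch and 0.27 without EV of batch 1. The 4 were the protease Mcpt8 (1.80), the transcription factor Cebpa (1.50), the protease Prss34 (1.38) and the receptor Cd200r3 (0.13). Cebpa was near the floor, at 0.295 to 2.05 CPM in batch 2 and 0.261 to 0.617 CPM in batch 1. Mcpt8 had 4.46 to 16.0 CPM in batch 2 and 0.859 to 8.07 CPM in batch 1. Of the 4, Prss34 alone did not overlap between the batches. In edgeR the call of Prss34 was lost without WT or Mut3 of batch 1 or Mut3 of batch 2 (adjusted p at most 0.0545), and that of Cd200r3 without WT of either batch (at most 0.0596). Cd200r3 also did not pass with upper-quartile scaling, with protein-coding transcripts or on the TPM scale, and Prss34 did not on the TPM scale.

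Of the summed levels of other lineages, those of neutrophil genes and of megakaryocyte and platelet genes did not overlap between the batches. The 20 neutrophil genes summed to 240.1 to 408.4 TPM in batch 2 and 13.23 to 74.67 TPM in batch 1, and Ctsg alone averaged 318 TPM in batch 2 and 26.3 TPM in batch 1. Of 6 neutrophil genes tested, 1 was higher and 0 lower (1 and 1 in the 8 libraries). The higher one was Ctsg, which is also listed with the granule proteases. The monocyte and macrophage genes summed to 73.58 to 122 TPM in batch 2 and 70.96 to 116.4 TPM in batch 1, and the erythroid genes to 343.2 to 409 TPM in batch 2 and 327.8 to 415.2 TPM in batch 1. Of 9 megakaryocyte and platelet genes tested, 0 were higher and 5 lower (median -0.18), beside 28.8% and 26.1% of all genes. The TPM scale gave 0 and 6, and the sum of the list was 1343 to 1633 TPM in batch 2 and 1784 to 2241 TPM in batch 1. Without Mut3 of batch 1 the counts were 1 and 2 (median -0.12), and without WT of batch 2 they were 0 and 6 (median -0.31). Itga2b alone averaged 1051 TPM in batch 2 and 1434 TPM in batch 1, with a log2 fold change of -0.14 on the TMM scale. Gp6, among the lower genes, was near the floor at 0.0385 to 0.134 CPM in batch 2 and 0.224 to 0.4 CPM in batch 1. The part of these sums in the batch differences was not tested.

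Immediate early genes, the transcription factors and phosphatases that answer growth factor signals within minutes, were mostly higher in batch 2. Of 20 tested, 12 were higher and 1 lower, with a median log2 fold change of 0.38, beside 28.8% and 26.1% of all genes. The 8 libraries gave 10 and 2 and the TPM scale 7 and 2. Junb, an AP-1 subunit, had 151, 155, 128, 225 and 114 CPM in batch 2, against 60.5, 57.8, 52.8, 53.6 and 49.5 CPM in batch 1 (log2 fold change 1.46 ± 0.13, edgeR adjusted p = 0.000286). Fos, its partner, had 5.76, 9.84, 5.38, 17.3 and 7.59 CPM in batch 2, against 1.34, 1.27, 2.24, 0.319 and 0.394 CPM in batch 1 (3.04 ± 0.70, adjusted p = 0.0182). Mut2 of batch 2 was the highest library for both genes. Ier2 (1.55), the phosphatase Dusp2 (1.49), the transcription factor Srf (0.40) and the zinc finger factor Egr1 (4.03 ± 1.03) rose too. The batch 1 libraries of Egr1 were far apart, at 27.5, 10.8, 19.1, 1.28 and 1.72 CPM against 103 to 244 CPM in batch 2. Its call was lost without WT, Mut1 or Mut3 of either batch (adjusted p at most 0.093), and that of Fos without EV of batch 1 or Mut3 of either batch (at most 0.0535).

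Of 26 targets and feedback inhibitors of cytokine signalling, 13 were higher and 4 lower (median 0.30), beside 28.8% and 26.1% of all genes. The 8 libraries gave 12 and 4 and the TPM scale 5 and 4. Spred1 (log2 fold change 0.41) and Spred2 (1.03), which restrain Ras signalling, the survival gene Bcl2l1 (0.60) and the cyclin Ccnd2 (0.46) were those with the smallest p. Spred2 had 36.5 to 41.7 CPM in batch 2 and 15.9 to 26.6 CPM in batch 1, with no overlap.

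Most genes of the cell cycle were higher in batch 2. Of 30 mitosis genes 29 were higher and 0 lower (median 0.48), and of 40 genes of DNA replication 29 were higher and 0 lower (median 0.31). Over all genes tested, 28.8% were higher and 26.1% lower. The 8 libraries gave 25 and 0 for mitosis and 21 and 0 for replication, and the TPM scale 17 and 0 and 6 and 2. Cdk1, the kinase that drives entry into mitosis, had 74.5, 83.7, 87.0, 78.9 and 86.5 CPM in batch 2, against 70.3, 52.0, 52.8, 44.7 and 52.2 CPM in batch 1 (log2 fold change 0.61 ± 0.11, edgeR adjusted p = 0.00325). Here EV of batch 1 lay near the batch 2 libraries while the 4 ASXL2 libraries of batch 1 lay lower. The EV pair showed little difference over these lists: the median deviation from the mean over all libraries, in log2 CPM, was 0.121 in EV of batch 2 and 0.120 in EV of batch 1 for mitosis, and 0.135 in EV of batch 2 and 0.165 in EV of batch 1 for replication. The cyclin Ccnb2 (0.54), the spindle checkpoint kinase Ttk (0.52), the spindle motor Kif11 (0.50), the cyclin Ccne1 (0.77) and the ribonucleotide reductase subunit Rrm1 (0.60) rose as well. With the 6 libraries whose label and name match in full, Ttk and Kif11 did not pass.

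The CCAAT box is a known element of mitotic promoters. It lay in 20 of the 24 promoters available for called mitosis genes (83.3%), beside 41.1% of the 27025 genes in the RefSeq promoter table (GRCm38.p6, 250 bases before to 50 after the start, CCAAT searched on both strands). In called replication genes it lay in 16 of 24 (66.7%). In other called lists the share ran between 0.0% (0 of 2, higher interferon response genes) and 100% (4 of 4, higher iron handling genes). Shown are stretches just before the start of the 3 called mitosis genes with the smallest p whose match lay before the start and outside annotated exons, at chr9:83834633-83834688 (Ttk, plus strand), chr9:70421555-70421603 (Ccnb2, minus strand) and chr19:37376309-37376369 (Kif11, plus strand), with CCAAT or its reverse complement ATTGG in capitals.
Ttk: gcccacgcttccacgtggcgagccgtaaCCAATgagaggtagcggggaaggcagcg
Ccnb2: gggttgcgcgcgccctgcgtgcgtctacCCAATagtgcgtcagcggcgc
Kif11: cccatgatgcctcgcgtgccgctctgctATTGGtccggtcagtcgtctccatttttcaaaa
In Ttk, Ccnb2 and Kif11 these matches began 28, 21 and 45 bases before the start. A match describes the letters of the window and does not show a bound site.

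Most growth genes were higher in batch 2 too. Of 35 genes of ribosome biogenesis and MYC targets, 33 were higher and 0 lower (median 0.39), beside 28.8% and 26.1% of all genes. The 8 libraries gave 33 and 0 and the TPM scale 13 and 0. Unlike for the cell cycle lists, the EV pair differed. The median deviation from the mean over all libraries, in log2 CPM, was 0.352 in EV of batch 2 and 0.105 in EV of batch 1. Odc1, the first enzyme of polyamine synthesis, had 125, 129, 133, 127 and 121 CPM in batch 2, against 88.8, 70.8, 69.9, 66.4 and 66.5 CPM in batch 1 (log2 fold change 0.82 ± 0.07, edgeR adjusted p = 6.46e-05). The ribosome assembly factors Wdr43 (0.50), the nucleolar helicase Ddx21 (0.47) and the ribosomal RNA methyltransferase Nop2 (0.44) rose by less. CACGTG, the E-box that MYC is known to bind, lay in 8 of 26 promoters of the called genes (30.8%) and in 8.09% of all promoters. A raised share was not particular to this list. In other called lists it ran between 0.0% (0 of 12, higher NRF2 targets) and 57.1% (4 of 7, lower lysosome genes). The match of Nop2, which lay before the start, is shown at chr6:125131795-125131856 on the plus strand, with the E-box in capitals, and the other 7 matches lay at or after the start and are not printed.
Nop2: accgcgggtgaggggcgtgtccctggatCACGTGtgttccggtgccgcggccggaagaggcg
The Nop2 match began 60 bases before the start. CACGTG also holds ACGTG, which was searched separately.

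Genes of mitochondrial respiration shifted by a small and even step. Of 74 subunits of the respiratory chain 68 were higher and 0 lower, with a median of 0.33, beside 28.8% and 26.1% of all genes. Without overlap, 67 of the 74 lay above batch 1 (17.3% of all genes did). The 8 libraries gave 68 and 0, and the TPM scale 29 and 2. Atp5g1, a subunit of the ATP synthase ring, had 80.2, 71.8, 73.9, 69.8 and 73.4 CPM in batch 2, against 55.1, 45.7, 44.2, 41.2 and 42.4 CPM in batch 1 (log2 fold change 0.70 ± 0.04, edgeR adjusted p = 2.49e-05). Cox5b of complex IV rose by 0.58, and Ndufs8 and Ndufa9 of complex I by 0.42 and 0.40. Of 18 citrate cycle genes 15 were higher and 0 lower (median 0.28), with 15 and 0 in the 8 libraries and 3 and 0 on the TPM scale, among them isocitrate dehydrogenase Idh2 (0.52), malate dehydrogenase Mdh2 (0.43) and fumarase Fh1 (0.40).

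Nnt, the transhydrogenase that makes NADPH in mitochondria, was named after its values were seen. It had 51.1, 62.7, 54.3, 51.7 and 54.2 CPM in batch 2, against 20.1, 20.5, 20.7, 19.5 and 20.1 CPM in batch 1 (log2 fold change 1.44 ± 0.05, edgeR adjusted p = 5.75e-07; 1.45 in the 8 libraries). The values within a batch were close together and the batches did not overlap. As background, C57BL/6J mice are known to carry a deletion within this gene and other mouse strains are not; the labels give no strain, and its part in the difference was not tested.

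**Figure D2:**
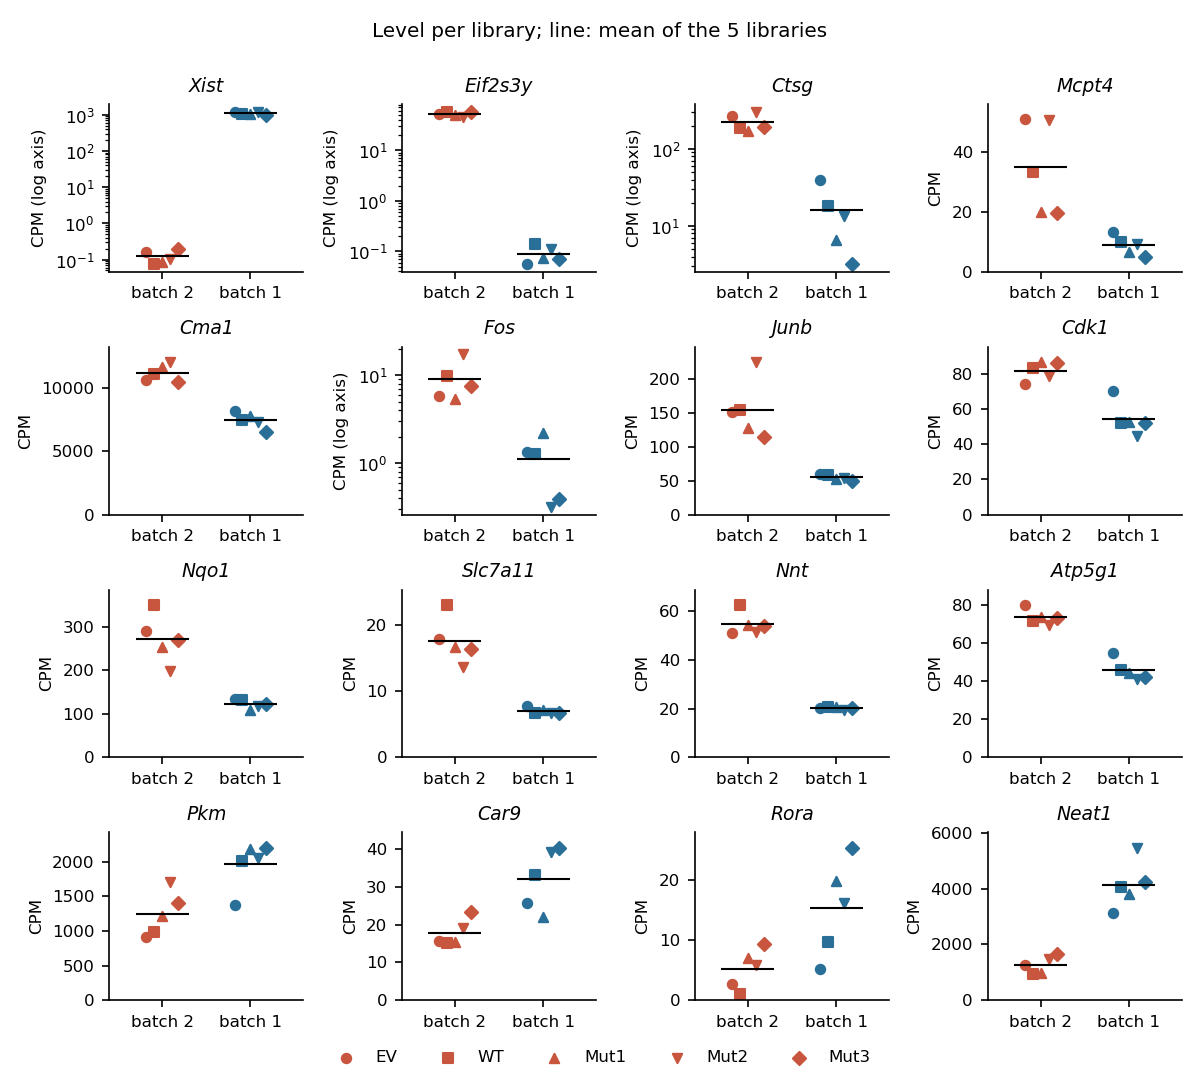
CPM of 16 genes in each library (y axes, from 0 except on the log axes of Xist, Eif2s3y, Ctsg and Fos), batch 2 in red at the left and batch 1 in blue at the right of each panel, with a symbol for each construct and a line at the mean of the 5 libraries. Xist lies at 0.0746 to 0.193 CPM in batch 2 and 952 to 1208 CPM in batch 1, whereas Pkm overlaps at 906 to 1708 CPM in batch 2 and 1375 to 2208 CPM in batch 1.

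About as many glycolytic and hypoxia genes were lower in batch 2 as did not pass, and few were higher, with wide differences within each batch. Of 23 glycolysis gene entries 2 were higher and 11 lower (median -0.26), and of 24 hypoxia genes 3 were higher and 12 lower (median -0.50). Over all genes tested, 28.8% were higher and 26.1% lower. The 8 libraries gave 2 and 12 and 3 and 13, and the TPM scale 1 and 14 and 0 and 11. The glycolysis median was -0.15 without WT of either batch and -0.39 without Mut2 of batch 1. Pkm, pyruvate kinase, had 906, 991, 1212, 1708 and 1411 CPM in batch 2, against 1375, 2013, 2186, 2052 and 2208 CPM in batch 1 (log2 fold change -0.68 ± 0.10, edgeR adjusted p = 0.00141). Car9, a carbonic anhydrase induced by HIF1, had 15.7, 15.2, 15.5, 19.1 and 23.2 CPM in batch 2, against 25.6, 33.1, 21.9, 39.1 and 40.4 CPM in batch 1 (-0.83 ± 0.09). For both genes each construct was lower in batch 2, but the batches overlapped. The median deviation of the hypoxia genes from their mean over all libraries, in log2 CPM, was -0.491, -0.568, -0.105, 0.315 and 0.002 in batch 2, against -0.240, 0.249, 0.202, 0.311 and 0.542 in batch 1. EV of batch 1 thus lay below Mut1, Mut2 and Mut3 of batch 2.

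Enolase Eno2 (-0.89), the regulator Pfkfb4 (-0.38), Narf (-0.57) and the histone demethylase Kdm3a (-0.31) fell, while the lactate transporter Slc16a1 (0.65) and Hif1a itself (0.28), the oxygen-regulated factor, rose. Without the construct block Eno2 did not pass, and on the TPM scale Hif1a did not. ACGTG, the core that HIF1 is known to bind, lay in 6 of 8 promoters of called lower hypoxia genes (75.0%) and in 21.8% of all promoters. In other called lists it ran between 0.0% (0 of 4, lower NF-kB targets, cytokines and chemokines) and 71.4% (5 of 7, lower lysosome genes). Shown, with CACGT (the reverse complement of ACGTG) in capitals, are the matches of Fam162a, a mitochondrial protein induced by hypoxia, at chr16:36071610-36071670 on the minus strand and of P4ha1, a collagen prolyl hydroxylase subunit, at chr10:59323252-59323295 on the plus strand.
Fam162a: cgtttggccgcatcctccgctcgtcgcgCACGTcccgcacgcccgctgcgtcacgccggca
P4ha1: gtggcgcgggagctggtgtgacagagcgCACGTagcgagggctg
Fam162a had 19.9 to 37.7 CPM in batch 2 and 28.8 to 47.3 CPM in batch 1 and fell by 0.56, and P4ha1 had 109.8 to 227 CPM in batch 2 and 204 to 249 CPM in batch 1 and fell by 0.47 on the log2 scale. Of 13 fatty acid synthesis genes 1 was higher, the malic enzyme Me1 (0.73), and 5 were lower, among them the elongase Elovl6 (-0.82). Beside these stand 28.8% higher and 26.1% lower of all genes. The fatty acid counts were 1 and 6 in the 8 libraries and 1 and 9 on the TPM scale.

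Antioxidant genes controlled by the transcription factor NRF2 were higher in batch 2. Of 17 tested 15 were higher and 0 lower, with a median of 0.67, beside 28.8% and 26.1% of all genes tested. All 15 lay above batch 1 without overlap (17.3% of all genes did). The 8 libraries gave 14 and 0, and the TPM scale 12 and 0. Txnrd1, thioredoxin reductase, had 429.5, 492, 416, 375 and 398 CPM in batch 2, against 266, 247, 225, 214 and 223 CPM in batch 1 (log2 fold change 0.84 ± 0.05, edgeR adjusted p = 1.43e-05). Nqo1, a quinone reductase, had 291, 351, 255, 199 and 270.1 CPM in batch 2, against 134, 133, 109, 118 and 123 CPM in batch 1 (1.13 ± 0.08, adjusted p = 7.71e-05). Sulfiredoxin Srxn1 (0.87), glutathione reductase Gsr (0.79) and G6pdx (0.67), the NADPH-making entry enzyme of the pentose phosphate pathway, rose with them. The ferritin chains Ftl1 (0.53) and Fth1 (0.41), which store iron, and the transferrin receptor Tfrc (1.02), which takes it up, were also higher. The iron handling list did not share 1 direction, with 6 of 12 higher and 2 lower (median 0.09). In the 8 libraries 4 of 11 were higher and 1 lower, and the TPM scale gave 4 and 4 (median -0.022). Ferritin genes have many processed copies in the genome, so their counts are uncertain.

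Most genes of amino acid supply were higher too. Of 28 ATF4 targets and amino acid supply genes 20 were higher and 1 lower (median 0.37), beside 28.8% and 26.1% of all genes. The 8 libraries gave 19 and 1 and the TPM scale 12 and 4. Slc7a11, the cystine transporter and a target of NRF2 as well, had 17.9, 23.1, 16.7, 13.7 and 16.4 CPM in batch 2, against 7.81, 6.65, 7.14, 6.69 and 6.77 CPM in batch 1 (log2 fold change 1.31 ± 0.10, edgeR adjusted p = 6.29e-05). Asparagine synthetase Asns (0.62), glycyl-tRNA synthetase Gars (0.62), phosphoserine phosphatase Psph (0.47) and the proline-making reductase Pycr1 (0.79) rose. TGATGNAA, the element that ATF4 is known to bind, lay in 7 of 19 promoters of called genes (36.8%), beside 4.51% of all promoters. The matches of Gars at chr6:55037943-55038000 (plus strand), Slc7a11 at chr3:50443625-50443688 (minus strand) and Pycr1 at chr11:120643816-120643879 (minus strand) are shown with the element, on either strand, in capitals.
Gars: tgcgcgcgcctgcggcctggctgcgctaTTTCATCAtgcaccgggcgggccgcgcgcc
Slc7a11: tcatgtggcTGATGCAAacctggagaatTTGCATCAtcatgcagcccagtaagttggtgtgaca
Pycr1: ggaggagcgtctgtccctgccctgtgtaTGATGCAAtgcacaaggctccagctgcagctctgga
Slc7a11 held 2 matches in the 250 bases before its start, and Gars and Pycr1 held 1 each.

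Of 18 genes of the unfolded protein response of the endoplasmic reticulum, 13 were higher and 2 lower (median 0.21), beside 28.8% and 26.1% of all genes. The 8 libraries gave 12 and 2, but the TPM scale 2 and 3. Calr, calreticulin, had 925, 941, 939.7, 807 and 878 CPM in batch 2, against 791, 654, 666, 578 and 617 CPM in batch 1 (log2 fold change 0.45 ± 0.05). The chaperones Pdia3 (0.41), Dnajb11 (0.38) and Canx (0.33) rose with TMM scaling and did not pass on the TPM scale. Endoplasmic reticulum stress elements hold CCAAT, which lay in 11 of 11 promoters of the called higher genes. Dnajb11 at chr16:22857781-22857841 (plus strand), Canx at chr11:50325713-50325773 (minus strand) and Calr at chr8:84847030-84847090 (minus strand) are shown with CCAAT or ATTGG in capitals.
Dnajb11: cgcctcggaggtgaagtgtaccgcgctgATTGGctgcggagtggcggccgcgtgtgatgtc
Canx: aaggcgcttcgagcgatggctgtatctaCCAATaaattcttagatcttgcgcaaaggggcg
Calr: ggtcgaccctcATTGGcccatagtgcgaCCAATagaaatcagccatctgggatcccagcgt
In the 250 bases before the start, Dnajb11, Canx and Calr held 4, 3 and 2 matches.

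**Figure D3:**
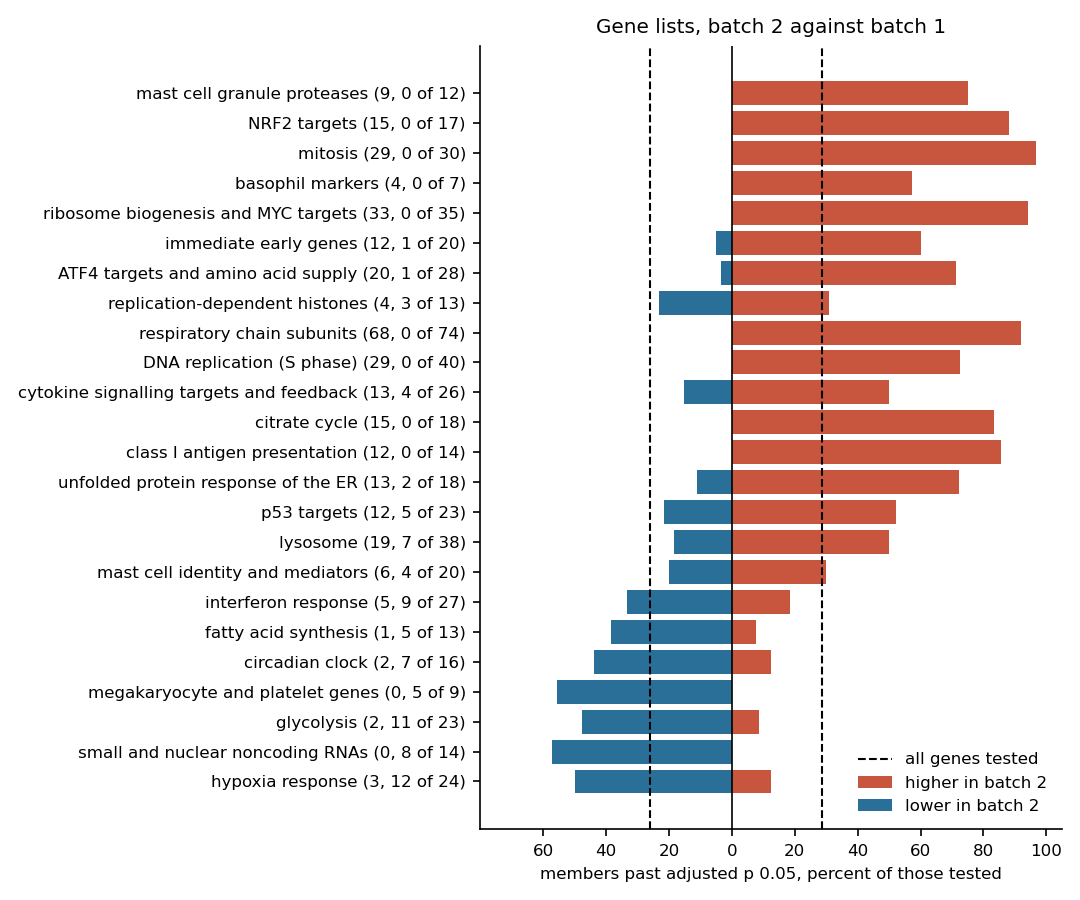
Share of tested members (x axis, percent) that were higher in batch 2 (red, right) or lower in batch 2 (blue, left) at an adjusted p of 0.05 in 24 gene lists, with the counts in brackets and dashed lines at the share of all genes tested (28.8% higher, 26.1% lower). Mitosis (29 of 30) and ribosome biogenesis (33 of 35) stand highest at the right, and small and nuclear noncoding RNAs (8 of 14 lower) stand out at the left.

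Of 14 genes of class I antigen presentation 12 were higher and 0 lower (median 0.27; 11 and 0 in the 8 libraries), but 1 and 0 on the TPM scale. H2-D1, a class I heavy chain, had 1044, 924, 949, 928 and 835 CPM in batch 2, against 799.6, 732, 716, 716 and 736 CPM in batch 1. The proteasome parts Psmb8 (0.47) and Psme2 (0.46) and the peptide transporter Tap1 (0.33) rose with it. Of 27 interferon response genes 5 were higher and 9 lower (median -0.12), beside 28.8% and 26.1% of all genes, with 4 and 8 in the 8 libraries and 1 and 12 on the TPM scale. The median ran between -0.20 without EV of batch 1 and -0.06 without Mut3 of batch 1. Stat2, a signal transducer of interferon, had 56.2, 56.6, 55.0, 57.2 and 55.2 CPM in batch 2, against 71.2, 75.0, 73.7, 72.9 and 72.9 CPM in batch 1 (log2 fold change -0.38 ± 0.03, edgeR adjusted p = 6.36e-05). Irf7 (-0.92) and the guanylate-binding protein Gbp7 (-0.25) also fell, while the membrane protein Bst2 (0.52) rose.

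Of 23 p53 targets 12 were higher and 5 lower (median 0.18), with 9 and 5 in the 8 libraries and 4 and 7 on the TPM scale. Over all genes tested, 28.8% were higher and 26.1% lower with TMM scaling. Gdf15, a stress cytokine that ATF4 controls too, had 54.5, 64.7, 37.3, 70.5 and 37.6 CPM in batch 2, against 31.5, 35.8, 19.4, 25.6 and 19.5 CPM in batch 1. Btg2, which restrains proliferation, had 2.00, 4.21, 2.37, 3.70 and 4.32 CPM in batch 2, against 5.82, 12.2, 9.39, 13.2 and 15.8 CPM in batch 1. These 2 targets moved in opposite directions, with log2 fold changes of 1.0 for Gdf15 and -1.75 for Btg2, and neither overlapped between the batches. Bax (0.37) and Ei24 (0.40) rose. Of 38 lysosome genes 19 were higher and 7 lower (median 0.13), with 17 and 7 in the 8 libraries, whereas the TPM scale gave 3 and 9 (median -0.045). The higher ones included the proton pump subunit Atp6v1a (0.47) and the hydrolase Gusb (0.49). Actin regulators named by the rule rose on the TMM scale, with Parvg at 0.64, Coro1c at 0.50, Flna at 0.50 and Vasp at 0.43, and of these Parvg alone passed on the TPM scale.

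Of 16 clock genes tested 2 were higher and 7 lower (median -0.17), beside 28.8% and 26.1% of all genes, with 0 and 7 in the 8 libraries and 0 and 9 on the TPM scale. The median was -0.28 without Mut2 of either batch. Per1, a repressor of the clock that glucocorticoids also induce, had 20.8, 21.1, 21.6, 30.5 and 24.4 CPM in batch 2, against 30.3, 38.3, 39.1, 44.9 and 42.5 CPM in batch 1 (log2 fold change -0.72 ± 0.06, edgeR adjusted p = 5.97e-05). Per3 (-0.65), Cry1 (-0.27) and the nuclear receptor Rora (-1.66) fell, and so did Tsc22d3 (-0.78), a target of the glucocorticoid receptor. The labels give no hour of harvest.

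Noncoding genes were more often called lower than higher in batch 2. Of 14 small and nuclear noncoding RNAs tested, 0 were higher and 8 lower (median -0.35), beside 28.8% and 26.1% of all genes. The 8 libraries gave 0 and 7 and the TPM scale 0 and 8. Neat1, the scaffold RNA of nuclear paraspeckles, had 1251, 930.4, 975, 1462 and 1670.1 CPM in batch 2, against 3145, 4088, 3807, 5490.4 and 4257 CPM in batch 1 (log2 fold change -1.74 ± 0.14, edgeR adjusted p = 0.000166). Gas5 (-0.43), Snhg5 (-0.56) and Kcnq1ot1 (-0.52) fell as well. Of 680 lincRNA genes 26 were higher and 304 lower (median -0.51), and of 701 antisense genes 25 were higher and 318 lower (median -0.51), whereas of 12952 protein-coding genes 4564 were higher and 2792 lower (median 0.05). Whether counting used the strand is not given in the sources used here, so antisense genes and the genes they overlap cannot be told apart.

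The same direction was seen in transcripts annotated as intron-retaining, a measure taken up after the falls of noncoding genes were seen. They took 2.48% ± 0.18 of the estimated counts in batch 2 and 3.61% ± 0.12 in batch 1 (SD, n = 5 each; exact permutation test, two-sided, p = 0.00794, the smallest that 5 against 5 allows). The lincRNA and antisense genes together took 0.777% ± 0.069 in batch 2 and 1.45% ± 0.10 in batch 1, and protein-coding transcripts 90.2% ± 0.47 in batch 2 and 87.9% ± 0.37 in batch 1 (exact permutation p = 0.00794 for each; adjusted p = 0.0212 over 8 library measures). Total estimated count (exact permutation p = 0.111) and mean fragment length lost from the effective length (exact permutation p = 0.468) did not pass. Counting protein-coding transcripts alone gave 3334 higher and 3064 lower of 12569 genes. The part of nuclear or unspliced RNA in the batch differences was not tested.

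**Figure D4:**
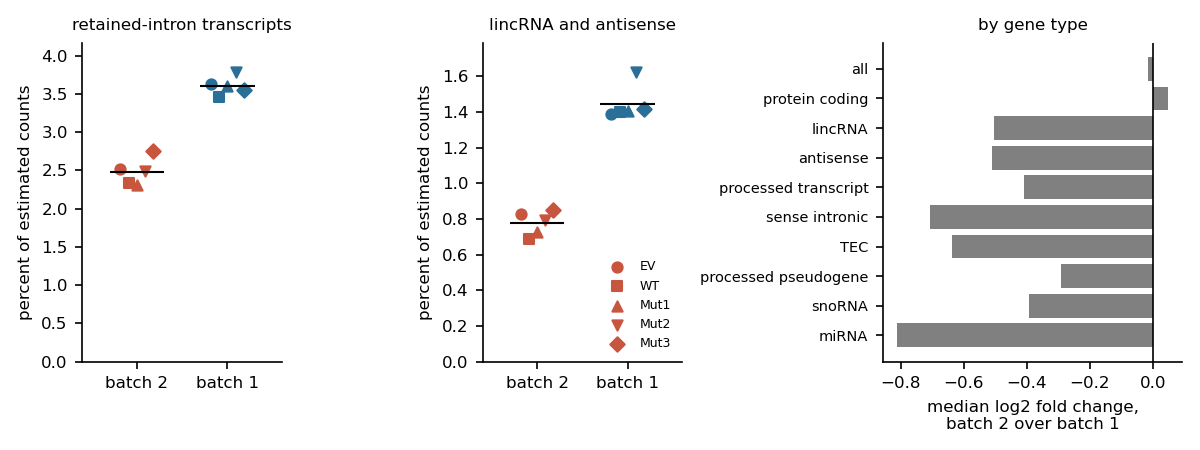
Left and middle, percent of estimated counts (y axes from 0) in intron-retaining transcripts and in lincRNA and antisense genes for each library, batch 2 at the left in red and batch 1 in blue, with a line at the mean of 5. Right, median log2 fold change of batch 2 over batch 1 by gene type, which is 0.05 for protein-coding genes and -0.51 for lincRNA genes.

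Histone genes of the replication-dependent clusters make mRNA without a polyA tail for the most part, and 13 of 32 were tested here. Of these 4 were higher and 3 lower (median 0.33), beside 28.8% and 26.1% of all genes tested. The 8 libraries gave 4 and 3, and the TPM scale 3 and 3. Hist1h1c, a linker histone, had 103, 111, 86.4, 114 and 99.8 CPM in batch 2, against 31.9, 35.5, 38.5, 32.3 and 34.4 CPM in batch 1 (log2 fold change 1.57 ± 0.09, edgeR adjusted p = 4.52e-05), and Hist1h2bg rose by 2.56.

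The level of the transduced gene itself stood beside these differences. Asxl2, which counts endogenous and construct reads together, had 112 CPM in EV and 994, 929.7, 909 and 793 CPM in the ASXL2 libraries of batch 2, against 106 CPM in EV and 1387, 1543, 1906 and 1129.7 CPM in those of batch 1. The EV libraries were close, and in each ASXL2 pair batch 2 was lower. In the 8 ASXL2 libraries the log2 fold change was -0.68 ± 0.10 (edgeR adjusted p = 0.00247), and -0.57 ± 0.06 in the 6 of them whose label and name give the same batch. Over all 10 libraries it was -0.55 ± 0.16, a call that was lost when WT, Mut1 or Mut3 of either batch was left out (adjusted p at most 0.0858). Of 11 ASXL proteins and BAP1 partners tested, 5 were higher and 4 lower (median 0.02), beside 28.8% and 26.1% of all genes. The 8 libraries whose label and name give the same batch gave 5 and 3, and the TPM scale 0 and 4. Of the partners of ASXL2, the O-GlcNAc transferase Ogt (-0.93), which is X-linked, and Mbd6 (-0.57) fell. The deubiquitinase Bap1 rose by 0.13, a call lost under several settings, and Asxl1 did not pass edgeR's test (log2 fold change 0.02, adjusted p = 0.667).

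**Figure D5:**
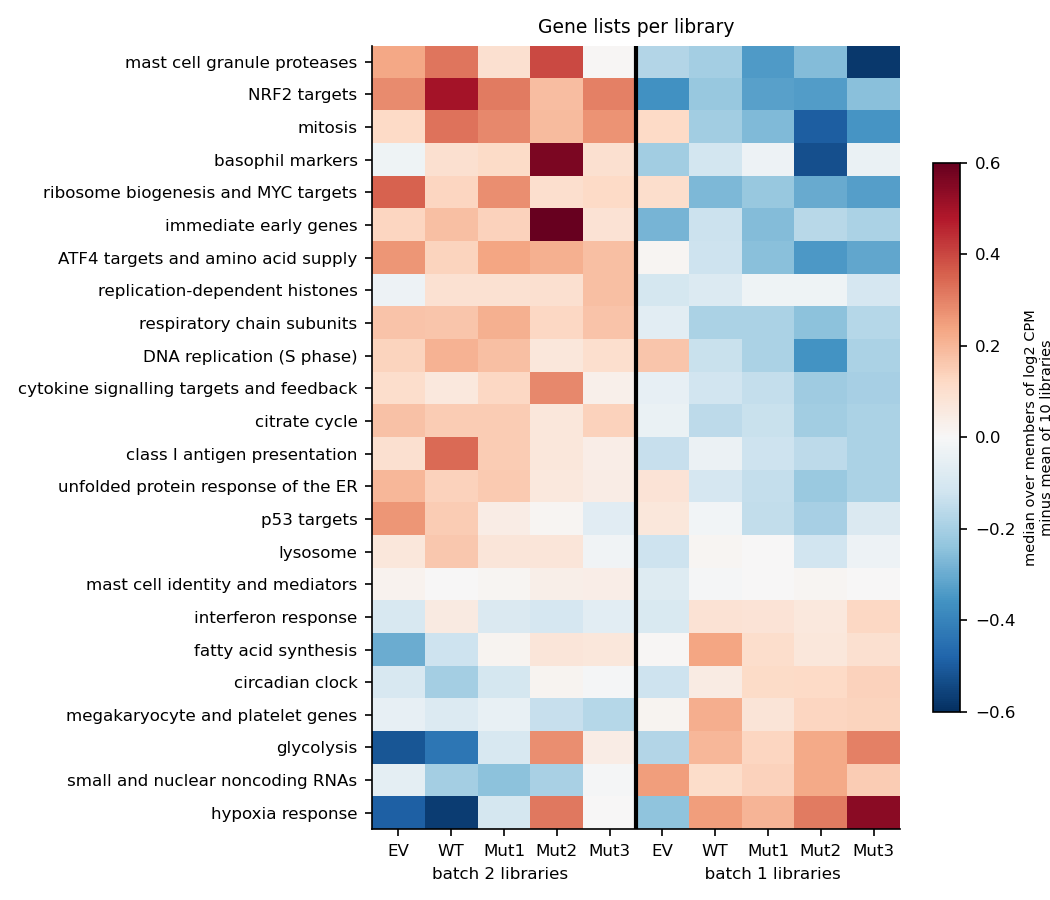
Median over list members of log2 CPM minus the mean over the 10 libraries (colour, limits -0.6 to 0.6) for 24 gene lists (rows) in the 5 libraries of batch 2 (left) and of batch 1 (right). The immediate early genes are highest in Mut2 of batch 2 (0.615), and the hypoxia genes run between -0.568 in WT of batch 2 and 0.542 in Mut3 of batch 1.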

How the data were processed

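The data are mRNA sequencing of 10 libraries from TruSeq preparations of polyA RNA. The authors' tools were kallisto and DESeq2 and their build mm10, per the submitters' processing notes. The sources used here give no role, version, transcript index or strand setting, and the column names are those kallisto writes. The deposited tables hold, per the file headers, estimated counts and TPM for 115088 transcripts, of which 114200 were matched to GENCODE M21 (GRCm38) and hold 99.339% to 99.561% of each library's counts; the effective length column was used only as a measure of fragment length.

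Estimated counts, as the authors deposited them, were summed per gene and rounded. Genes passing filterByExpr (minimum count 10) were tested with edgeR 4.0.16 (robust quasi-likelihood, TMM, construct as block, R 4.3.3), with Benjamini-Hochberg adjustment at 0.05. Alternatives used DESeq2 1.42.0, limma 3.58.1 on log2(TPM + 1), other scalings, filters, blocks and sets of libraries. The script was tested on simulated data. Library measures were compared with two-sided exact permutation tests over 252 splits. The block rests on construct names: the deviations of same-construct libraries from their batch means correlated at r = 0.51 (EV), 0.20 (WT), 0.16 (Mut1), 0.11 (Mut2) and 0.21 (Mut3), while Mut2 of batch 2 correlated at 0.13 with Mut3 of batch 1.

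The members and the 55 gene lists were chosen with earlier results of these data known. Named are the 15 largest rises and 15 largest falls that pass in 10 and in 8 libraries with the same direction in all 5 construct pairs and a mean of at least 5 CPM in the higher batch (predicted symbols left out), up to 4 members per list with the smallest p, Asxl1, Asxl2, Bap1 and the sex-linked genes. The other granule proteases, Kdm6a, Kdm5c, Eif2s3x, Ddx3x and Nnt were added after their values were seen, as were Kif11, Nop2, Pycr1, Fam162a and P4ha1 for their promoters, the measure of intron-retaining transcripts and the fit on protein-coding transcripts. A few genes that the rule names are not reported here. Promoter sequences are from RefSeq, and 6 motifs were searched for called members of each list.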

Additional observations from a re-analysis of the deposited data

Results flagged for a closer look

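Of 102 groups of 5 values examined, 11 held a library far from the other 4 of its batch by Dixon's ratio, where chance gives about 1 in 20. Among genes, Asxl2 had 112 CPM in EV of batch 2, against 793 to 994 CPM in the ASXL2 libraries, and EV holds no ASXL2 construct. Cadps2 had 10.5 CPM in Mut2 of batch 2, against 1.02 to 2.88 CPM in the others, and this is a library whose label gives batch 1. Maf had 1.61 CPM in WT of batch 2, against 3.73 to 4.39 CPM. In EV of batch 1, Mcpt2 had 8.8 CPM, against 2.36 to 3.7 CPM, and Mcpt8 had 8.07 CPM, against 0.859 to 2.6 CPM. Ddx3y had 0.322 CPM in Mut3 of batch 1, against 0.104 to 0.164 CPM.

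Among summed lineage genes, the lymphoid list stood at 16.8 TPM in EV of batch 2, against 2.33 to 3.79 TPM, and the eosinophil list at 17.9 TPM in Mut1 of batch 1, against 3.55 to 5.25 TPM. The erythroid list stood at 415 TPM in Mut1 of batch 1, against 328 to 342 TPM, and the dendritic cell and class II list at 61.4 TPM in EV of batch 1, against 86.9 to 92.2 TPM. The lincRNA and antisense share was 1.63% of estimated counts in Mut2 of batch 1, against 1.39% to 1.42%, and this is the library whose label gives batch 2. What these libraries share was not tested.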

How the results depend on the processing

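Of 138 named genes, 138 kept direction and call with the pooled class (EV, WT, mutant) as block, with DESeq2 and with DESeq2's size factors. The 8 libraries served in choosing the largest rises and falls, so their calls there were fixed by that choice. With batch and construct from the labels, 0 genes and 0 list members were higher and 0 and 0 lower, and Asxl2 in the ASXL2 libraries stood at -0.165 (edgeR adjusted p = 0.614). By label, 4 library measures that had an exact permutation p under 0.05 by name no longer had one: they differed by 0.0595 (matched counts), -0.608 (intron-retaining transcripts), -0.337 (lincRNA and antisense genes) and 1.15 percentage points (protein-coding transcripts). Fragment shortening (-1.23 bases) and Mir6236 (-6430 TPM), neither of which passed by name, changed sign.

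On the TPM scale 1031 genes and 160 list members were higher, and 23 named genes no longer passed. In the 6 libraries whose label and name match in full, 2106 genes and 108 list members were lower, and 13 named genes no longer passed. Leaving out 1 library at a time gave 3941 to 4650 genes higher and 3263 to 4245 lower, 391 to 462 list members higher and 134 to 192 lower. Asxl2 in the ASXL2 libraries ran between -0.768 and -0.561 when 1 of them was left out, and stood at -0.71 with no replicate block (edgeR adjusted p = 0.00456). With no replicate block 4216 genes were higher and 3760 lower over the 10 libraries, and 5 named genes no longer passed.

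Values near 0 changed sign. The median of mast cell identity genes was -0.024 with protein-coding transcripts, -0.009 with at least 1 CPM in 5 libraries, -0.105 by TPM and -0.034 by upper quartile, and that of lysosome genes -0.045 by TPM. In the same 4 settings Ddx3x was at -0.056, -0.033, -0.163 and -0.057 and Asxl1 at -0.072, -0.045, -0.145 and -0.07. Cpa3 was at -0.018 with protein-coding transcripts, -0.102 by TPM and -0.015 by upper quartile, Gzmb at -0.037 and Bap1 at -0.153 by TPM, and Mcpt9 at 0.023 in the ASXL2 libraries. Without 1 library, Ddx3x ran between -0.001 and 0.058, Mcpt9 between -0.156 and 0.127 and Asxl1 between -0.008 and 0.039. The causes were not tested. The setting with protein-coding transcripts, and that of Asxl2 in the ASXL2 libraries whose label and name give the same batch, were chosen after seeing the data. Batch cannot be told apart from the sex-linked difference.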

Other observations

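Further gene lists are given here beside the shares of all genes tested (28.8% higher and 26.1% lower in batch 2). These shares hold for TMM scaling, whereas on the TPM scale 1031 of 16443 genes were higher and 5449 lower. Of 34 Polycomb subunits 11 were higher and 10 lower in batch 2, with 8 and 7 in the 8 libraries whose label and name give the same batch. On the TPM scale the Polycomb counts were 1 and 12. Of 26 NF-kB targets, cytokines and chemokines 4 were higher and 5 lower (TPM scale 1 and 9), of 16 autophagy genes 4 and 4 (TPM scale 0 and 9), and of 20 genes of granule exocytosis 7 and 5 (TPM scale 0 and 8). Of 25 genes of cholesterol synthesis 2 were higher and 3 lower with TMM scaling, and 0 and 16 on the TPM scale. Of 77 cytosolic ribosomal proteins 19 were higher and 4 lower with TMM scaling, and 1 and 9 on the TPM scale. Of 21 genes of stem and progenitor cells tested 4 were higher and 8 lower (TPM scale 1 and 7).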
